A study of Homo sapiens with 16 samples.

Results

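HIF-1α binding in T47D cells was compared with HIF-1α binding in 3 other cancer cell lines, to ask which T47D sites had no counterpart and how these sites differed from those that had one. A T47D site was a merged region with a ChIP-seq peak in both T47D HIF-1α replicates, sharing at least 1 bp. This gave 439 sites from the T47D HIF-1α lists of 761 and 711 peaks. The 8 HIF-1α lists of the 4 lines held 16383 peaks, out of 23398 peaks in the 16 HIF-1α and HIF-2α lists. Of the 439 sites, 47 overlapped no HIF-1α peak in any of the 6 lists of A549, HCT116 and PC3 and are called T47D-only. The other 392 sites overlapped at least 1 such peak and are called shared.

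T47D is a breast cancer line, A549 a lung carcinoma line, HCT116 a colorectal carcinoma line and PC3 a prostate cancer line. All cells were kept in 0.5% oxygen for 16 h before chromatin immunoprecipitation with the HIF-1α antibody PM14 or the HIF-2α antibody PM9, and no untreated group was analysed here. T47D cells were grown in DMEM, A549 and PC3 cells in F12K and HCT116 cells in McCoy's 5a, so that culture medium and cell line cannot be told apart, other than for A549 and PC3. Each line and antibody had 2 libraries, and the labels do not say whether these came from separate cultures, so the spread within a line may be technical. The p-values compare 2 T47D libraries with 6 libraries that are pairs from 3 other lines. They therefore measure spread both within and between lines, and the 6 libraries are not 6 independent units. Peak lists hold no expression values, and the identity of the lines was not checked against marker genes.

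HIF is a dimer of an oxygen-labile α subunit (HIF-1α or HIF-2α) and the stable partner HIF-1β. Prolyl hydroxylation marks the α subunit for destruction when oxygen is plentiful. In hypoxia it accumulates, and the dimer binds DNA at the short motif RCGTG, in which R is A or G. Both isoforms recognise the same motif, and in general HIF-1α is known for binding near promoters of glycolytic genes and HIF-2α for binding at distal elements.

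The HIF-1α lists differed in length, and the read depth behind them is unknown. The T47D lists held 761 and 711 peaks, the A549 lists 382 and 629, the PC3 lists 1517 and 3413, and the HCT116 lists 4505 and 4465. A missing peak is therefore not evidence that a site was unbound, and intervals given for shares cover counting error over sites only. The score that accompanies each peak is the peak caller's and its lowest value was near 50 in each list. It was used here as a rank, the percentile being the percentage of peaks in the same list with an equal or lower score.

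The core motifs of the best-ranked T47D-only sites lay in DNA of varied composition, as the sequences around the RCGTG nearest to the centre of each site show. They are printed 5′ to 3′ from GRCh37 on the strand that carries the motif, with the motif in capitals, for the 5 best-ranked sites over 10000 bp from a start and for those near WT1 and KRT8, which are described further on.
BMP4, chr14:54405328-54405376, minus strand: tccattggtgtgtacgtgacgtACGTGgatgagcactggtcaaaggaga
FOS, chr14:75721709-75721757, plus strand: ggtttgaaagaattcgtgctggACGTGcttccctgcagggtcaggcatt
PTPRN2, chr7:157293827-157293875, minus strand: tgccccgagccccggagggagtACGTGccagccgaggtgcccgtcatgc
TMEM63B, chr6:44044075-44044123, minus strand: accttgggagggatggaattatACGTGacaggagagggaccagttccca
RAPGEF1, chr9:134721116-134721164, plus strand: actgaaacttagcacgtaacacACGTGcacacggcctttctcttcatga
WT1, chr11:32442897-32442945, minus strand: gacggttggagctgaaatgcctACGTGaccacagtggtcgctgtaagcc
KRT8, chr12:53369052-53369100, minus strand: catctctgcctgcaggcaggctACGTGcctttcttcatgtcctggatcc

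Shared sites at ranks 1, 2, 5 and 8 are shown the same way for comparison, all of them with a HIF-1α peak in the 6 libraries of the other lines. The printed core lay 545 bp from the centre at SLC16A3, 374 bp at KRT8 and 215 bp at TMEM63B. These 3 cores are outside the central 200 bp in which motifs are counted further on.
ANKRD37, chr4:186317678-186317726, minus strand: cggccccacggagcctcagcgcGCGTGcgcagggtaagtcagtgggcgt
GPI, chr19:34850319-34850367, plus strand: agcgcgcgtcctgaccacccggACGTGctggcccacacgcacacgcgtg
SNAPC1, chr14:62217992-62218040, plus strand: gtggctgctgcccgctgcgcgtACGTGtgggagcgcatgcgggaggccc
SLC16A3, chr17:80188984-80189032, minus strand: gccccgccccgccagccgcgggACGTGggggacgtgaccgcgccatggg

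Most T47D sites recurred in the other lines, and absence from the other lines was not the end of a smooth decline. The number of sites with a peak in 0, 1, 2, 3, 4, 5 and 6 of the other libraries was 47, 20, 33, 48, 83, 65 and 143. The T47D-only class was thus larger than the class with 1 or with 2 other libraries. By cell line, 226 sites had a peak in all 3 other lines, 126 in 2, 40 in 1 and 47 in none. A peak was found at 365 T47D sites (83.1%) in HCT116, at 365 (83.1%) in PC3 and at 240 (54.7%) in A549, which has the shortest lists. Sites shared with a single line numbered 20 for HCT116, 18 for PC3 and 2 for A549.

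**Figure D1:**
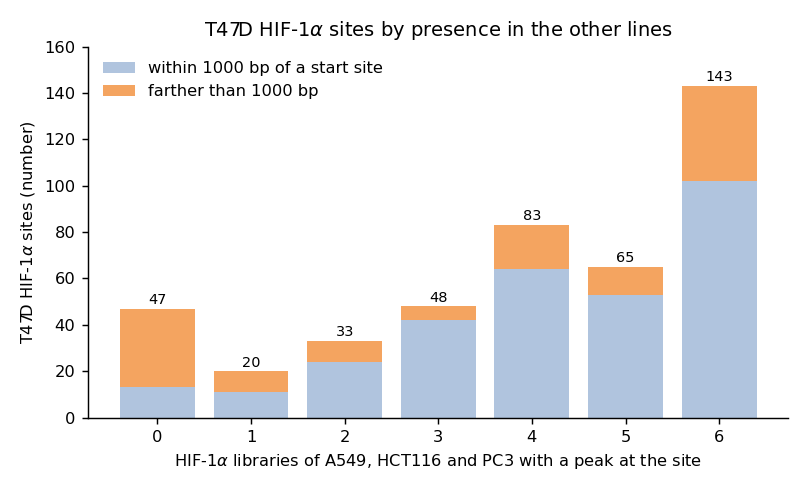
Number of T47D HIF-1α sites (vertical axis) by how many of the 6 HIF-1α libraries of A549, HCT116 and PC3 had an overlapping peak (horizontal axis), each bar divided into sites within 1000 bp of a protein-coding start site and sites farther away. The bar at 0 holds 47 sites, 34 of them farther than 1000 bp, whereas in the bars from 2 to 6 most sites are within 1000 bp.

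The share of line-only sites in T47D (47 of 439, 10.7%, Wilson 95% interval 8.15 to 13.9%) stood between that of A549 (19 of 252, 7.54%) and those of PC3 (227 of 1063, 21.4%) and HCT116 (1026 of 2500, 41.0%), in the order of list length. When each list was reduced to its 382 best-scoring peaks, the length of the shortest list, the shares were 16.9% in T47D (46 of 272, 12.9 to 21.8%), 17.9% in A549, 16.8% in PC3 and 12.8% in HCT116, with overlapping intervals. Of the 46 T47D-only sites obtained in this way, 25 were among the 47 and 21 had a lower-ranked peak in the full lists of another line.

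The classification turned on few borderline cases. The smallest overlap of a shared site with a peak of another line was 595 bp, at the YY1 site, followed by 753 bp at the site of ENSG00000289722 and 793 bp at the NFIL3 site. Among T47D-only sites, the nearest HIF-1α peak of another line was 152 bp away from the TMEM63B site, 4812 bp from the XAB2 site and 6571 bp from the ST8SIA6 site. The median gap was 71575 bp, with 4 of 47 gaps up to 10000 bp and 20 up to 50000 bp. The T47D-only TMEM63B site (chr6:44042427-44045341) borders a shared site (chr6:44040509-44042331) with a peak in all 6 other libraries and scores of 541 and 814 in T47D, against 181 and 281 at the T47D-only site.

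T47D-only sites lay mostly away from promoters, and shared sites mostly at promoters. Of the 47 T47D-only sites, 13 (27.7%, Wilson 95% interval 16.9 to 41.8%) had their centre within 1000 bp of the start of a protein-coding transcript, compared with 296 of 392 shared sites (75.5%, 71.0 to 79.5%), a difference of -47.9 percentage points (Newcombe 95% interval -59.3 to -33.1). The median distance to a start site was 14624 bp (95% interval 2928 to 28664) at T47D-only sites and 182 bp (152 to 240) at shared sites. Sites farther than 50000 bp from any protein-coding start made up 29.8% of the T47D-only class (14 of 47) and 4.59% of the shared class (18 of 392). Starts of other genes were not counted here and could lie closer. Direction did not part the classes, as 18 of 34 T47D-only distal sites and 54 of 96 shared distal sites lay upstream of the nearest start. With 382 peaks in each list the promoter shares were 43.5% (20 of 46) and 75.2% (170 of 226), and without HCT116 they were 43.3% (29 of 67) and 75.3% (280 of 372).

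Against gene models, 26 T47D-only sites were intergenic, 15 intronic, 5 in a 5′ untranslated region and 1 in a coding exon. Shared sites were intergenic in 219 cases, intronic in 91, in a 5′ untranslated region in 48, in a coding exon in 32 and in a 3′ untranslated region in 2. The intergenic shares of 55.3% and 55.9% include sites just upstream of a start. Intergenic sites farther than 1000 bp from a start were 48.9% of the T47D-only class and 17.1% of the shared class.

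The same direction was seen in every library of every line. Over all peaks of a library, the promoter share was lower at line-only than at shared peaks in 8 of 8 libraries. The difference was -47.6 and -56.8 percentage points in T47D, -44.9 and -39.0 in A549, -36.8 and -26.0 in PC3 and -12.6 and -16.0 in HCT116. The T47D libraries had the lowest values and did not overlap with the others. The T47D mean was -52.2 ± 6.50 (SD, n = 2) and that of the other lines -29.2 ± 13.1 (SD, n = 6), and an exact two-sided permutation test over the 8 libraries, with 28 relabellings and a smallest possible p of 0.0357, gave p = 0.0714 (adjusted p = 0.357 over 5 measures). A single measure at that smallest p could not have reached an adjusted p under 0.05. The log10 distance to a start site was greater at line-only peaks in 8 of 8 libraries, by 2.13 ± 0.166 in T47D (n = 2) and 1.14 ± 0.761 in the other lines (n = 6), with exact permutation p = 0.143 (adjusted p = 0.357). Over peaks found in both replicates the promoter difference was -48.2 and -48.1 points in T47D and -39.5 and -41.3 in A549. It was -32.3 and -33.0 in PC3 and -0.728 and -1.26 in HCT116. For T47D against the other lines this gave exact permutation p = 0.0714 (adjusted p = 0.0714). Here too line-only peaks were at promoters less often in A549 (15.8% in each library) than in T47D (27.1% and 27.7%). With 382 peaks in each list the promoter contrast in T47D minus that of the other lines came to 1.74 points in place of -23.0, and the cause was not tested.

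**Figure D2:**
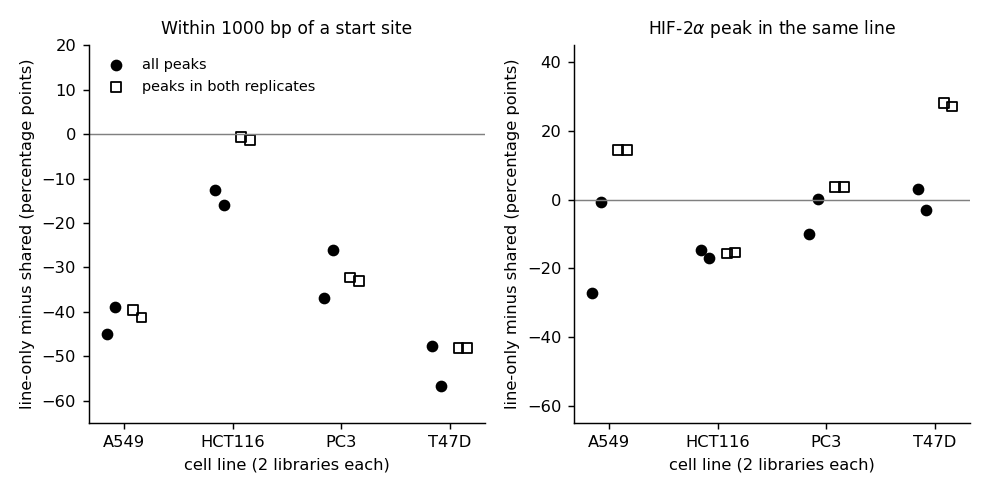
Line-only minus shared peaks, in percentage points, for the share within 1000 bp of a start site (left) and the share with a HIF-2α peak of the same line (right), with 1 point per HIF-1α library, filled for all peaks and open for peaks found in both replicates. All promoter differences are below 0, and for HIF-2α the open T47D points (28.1 and 27.2) lie above those of the other lines.

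T47D-only sites were of middling rank. The median of the mean percentile over both T47D lists was 59.6 (95% interval 46.7 to 70.8) at T47D-only sites and 67.9 (63.8 to 73.2) at shared sites. The difference of -8.35 grew to -18.5 with 382 peaks in each list, to -18.6 without HCT116 and to -12.6 with only the peaks scoring at least 76.6. The median scores in replicates 1 and 2 were 115 and 89.8 at T47D-only sites and 125 and 115 at shared sites. The top of the ranking held few T47D-only sites: none among the best 25, 1 among the best 50, 6 among the best 100 and 17 among the best 200. A mean percentile over 90 was reached by 1 T47D-only site (2.13%), the BMP4 site at rank 41, and by 68 shared sites (17.3%). The percentiles in replicates 1 and 2 were related to a like degree across the T47D-only sites (Pearson r = 0.716 over 47 sites) and the shared sites (r = 0.679 over 392 sites), which is a description across sites of the same pair of libraries.

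The difference in position was present at every rank. With the T47D sites divided by mean percentile into 3 groups of like size, from lowest to highest, 35.0% (7 of 20), 31.6% (6 of 19) and 0% (0 of 8) of T47D-only sites were within 1000 bp of a start, compared with 79.5%, 74.8% and 72.5% of shared sites. None of the 8 T47D-only sites in the highest group lay at a promoter.

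**Figure D3:**
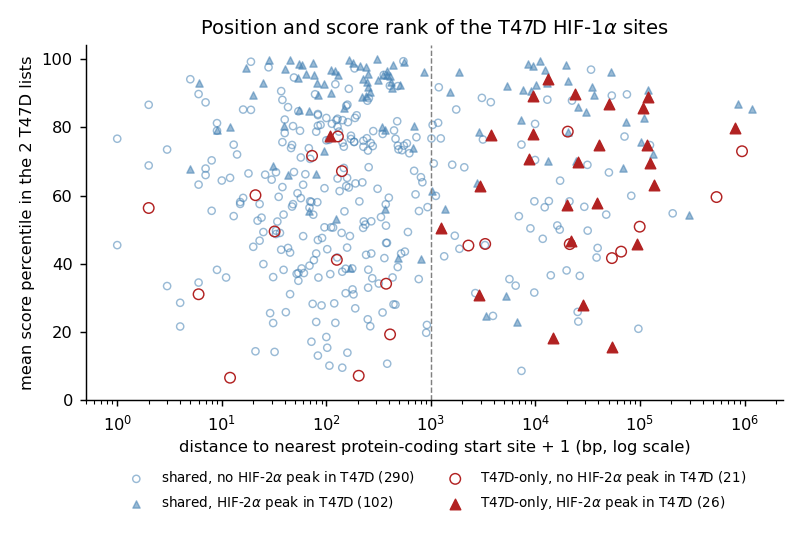
Mean score percentile of each T47D HIF-1α site in both T47D lists (vertical axis) against its distance to the nearest protein-coding start site plus 1 bp (horizontal axis, log scale, dashed line at 1000 bp), red for 47 T47D-only and blue for 392 shared sites, with filled triangles where T47D had a HIF-2α peak. All but 1 of the 26 red triangles lie to the right of the dashed line.

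Replication between libraries also separated the classes, in T47D and in each of the other lines. Of 173 line-only peaks in replicate 1 and 156 in replicate 2, 48 (27.7%) and 47 (30.1%) overlapped a peak of the other replicate. Of the shared peaks, 392 of 588 (66.7%) and 392 of 554 (70.8%) did so. In A549 the shares were 20.7% and 16.7% of line-only and 81.6% and 45.2% of shared peaks. They were 39.9% and 38.3% against 77.5% and 84.5% in HCT116. In PC3 they were 42.7% and 16.1% against 85.4% and 41.8%. The peaks seen in 1 T47D list only had low scores, with a median of 56.1 and 55.3 for line-only and 63.0 and 64.5 for shared peaks.

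HIF-2α peaks in T47D, which come from libraries that played no part in choosing the sites, coincided with T47D-only sites more often than with shared sites. At least 1 of the T47D HIF-2α lists, of 423 and 424 peaks, had a peak at 26 of 47 T47D-only sites (55.3%, Wilson 95% interval 41.2 to 68.6%) and at 102 of 392 shared sites (26.0%, 21.9 to 30.6%), a difference of 29.3 points (Newcombe 95% interval 14.5 to 43.2). Both lists had a peak at 22 and 63 sites (46.8% and 16.1%). The overlap lay at distal T47D-only sites, of which 25 of 34 (73.5%, 56.9 to 85.4%) had a HIF-2α peak, compared with 1 of 13 promoter sites (7.69%), the PIK3R1 site. Among distal sites alone the shared class had a HIF-2α peak at 38 of 96 (39.6%), a difference of 33.9 points (14.5 to 49.0), and among promoter sites at 64 of 296 (21.6%).

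**Figure D4:**
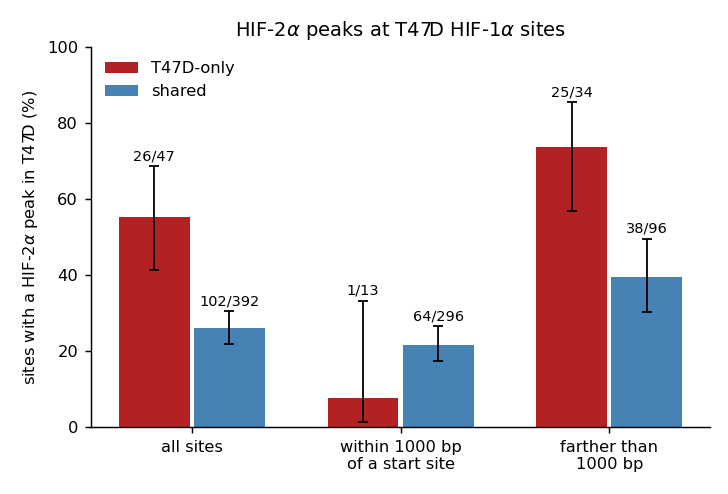
Percentage of T47D HIF-1α sites with a peak in at least 1 T47D HIF-2α list, for T47D-only (red) and shared (blue) sites, over all sites and by position, with Wilson 95% intervals as error bars and numbers of sites above them. The largest share is at distal T47D-only sites, 25 of 34.

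The HIF-2α overlap did not change evenly with the number of other lines that shared a site. It was 55.3% at T47D-only sites, between 6.25% and 12.1% at sites with a peak in 1 to 4 of the other libraries, 26.2% with 5 and 46.2% with 6. Rank moved with it among shared sites, whose median mean percentile was between 42.6 and 55.5 with 1 to 4 other libraries, 72.0 with 5 and 83.9 with 6. From the lowest to the highest of the 3 rank groups, HIF-2α peaks were found at 35.0%, 63.2% and 87.5% of T47D-only sites and at 5.51%, 13.4% and 56.5% of shared sites.

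This overlap depended on requiring both T47D HIF-1α replicates. T47D-only peaks of replicate 1 had a HIF-2α peak in 54.2% of cases (26 of 48) when the other replicate had the peak and in 10.4% (13 of 125) when it did not, and in replicate 2 in 53.2% (25 of 47) and 1.83% (2 of 109). Shared peaks fell as well, from 26.0% (102 of 392) to 6.63% (13 of 196) in replicate 1. In replicate 2 they fell from 26.0% to 6.79% (11 of 162). Taken over all peaks, the line-only minus shared difference in HIF-2α overlap was 2.99 and -3.09 points in the T47D libraries, -27.1 and -0.593 in A549, -14.5 and -16.9 in HCT116 and -10.0 and 0.202 in PC3, with overlapping ranges (exact permutation p = 0.214, adjusted p = 0.357). Over peaks found in both replicates it was 28.1 and 27.2 points in T47D, 14.5 and 14.5 in A549, 3.66 and 3.63 in PC3. In HCT116 it was -15.7 and -15.4, so that this difference was highest in T47D (exact permutation p = 0.0714, adjusted p = 0.0714). The line-only share itself was higher in A549, at 73.7% in each library, than in T47D (54.2% and 53.2%). This share was lower in PC3 and HCT116 than in T47D. Shared peaks had a HIF-2α peak in 59.1% and 59.2% of cases in A549, against 26.0% in T47D. With 382 peaks in each HIF-1α list, HIF-2α peaks were at 19 of 46 T47D-only sites (41.3%) and 89 of 226 shared sites (39.4%), a difference of 1.92 points. Without HCT116, which has the longest lists, it was 13.1 points, since 20 shared sites then joined the T47D-only class.

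Sites without HIF-1α in the other lines were mostly without HIF-2α there as well. A HIF-2α peak in any library of A549, HCT116 or PC3 was found at 4 of 47 T47D-only sites (8.51%) and at 218 of 392 shared sites (55.6%). A HIF-2α peak in T47D and in no other line was found at 22 of 47 T47D-only sites (46.8%) and at 4 of 392 shared sites (1.02%). The classes were defined by HIF-1α peaks in the same other lines. These shares are therefore no independent measure of how particular HIF-2α binding is to T47D. The 4 T47D-only sites with HIF-2α in another line lay near WT1, KRT8, MUC16 and RIOK1. At the RIOK1 site, 28664 bp downstream of the start of this atypical kinase gene, HIF-2α scored 336 and 537 in T47D and 316 and 214 in A549, whereas HIF-1α scored 55.3 and 66.8 in T47D and had no peak in A549. At the MUC16 site, near the gene of the CA125 antigen, a HIF-2α peak was listed in T47D replicate 2 (92.5) and PC3 replicate 2 (82.7) only.

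The HIF-2α lists of T47D (423 and 424 peaks) are shorter than its HIF-1α lists (761 and 711), so that a percentile in one is not a percentile in the other, and the classes were set side by side over the same lists. Where both HIF-2α lists had a peak, the mean HIF-2α percentile exceeded the mean HIF-1α percentile at 16 of 22 such T47D-only sites (72.7%), with a median percentile difference of 15.1, and at 22 of 63 such shared sites (34.9%), with a median of -6.93. Among distal sites it was 15 of 21 and 16 of 29.

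The intervals of the difference in HIF core motif share between T47D-only and shared sites included 0, and the DNA of T47D-only sites had fewer CpG dinucleotides. Within the 200 bp around the centre of a site, counting either strand, RCGTG was present at 35 of 47 T47D-only sites (74.5%, Wilson 95% interval 60.5 to 84.7%) and at 299 of 392 shared sites (76.3%, 71.8 to 80.2%), a difference of -1.81 points (-16.3 to 9.39). By position, it was present at 67.6% of T47D-only and 80.2% of shared distal sites, a difference of -12.6 points (-30.7 to 3.47), and at 92.3% and 75% of promoter sites, a difference of 17.3 points (-8.72 to 25.5). The differences at distal and promoter sites had opposite signs, and all 3 intervals include 0. It was present in 42.6% of windows of the same length at protein-coding start sites, and in 22.3% and 27.6% of windows 5000 bp to the sides of T47D-only and shared sites. The median number of CpG in the window was 5 at T47D-only and 19 at shared sites, and the median GC content 55.5% and 68.0%. In excess of flanking windows with the same number of CpG, RCGTG was present at 32.5 points more T47D-only sites and 21.5 points more shared sites. Anywhere in the site, 46 of 47 T47D-only sites had an RCGTG, the exception being the promoter site of ERCC6L2, a helicase-like gene of DNA repair. Each letter match describes the sequence and does not show that HIF bound there.

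Over all peaks of a library, replicated or not, RCGTG was rarer at line-only peaks in 8 of 8 libraries, by -29.7 ± 12.6 points in T47D (n = 2) and -20.6 ± 10.0 in the other lines (n = 6, exact permutation p = 0.357, adjusted p = 0.357). Over peaks found in both replicates the difference was 1.02 and -8.36 points in T47D. Percentiles were lower at line-only peaks in 8 of 8 libraries, by -29.9 ± 3.10 in T47D and -32.8 ± 3.10 in the other lines (exact permutation p = 0.286, adjusted p = 0.357). Restricted to replicated peaks, the medians differed by -7.35 ± 4.45 in T47D and -21.4 ± 5.25 elsewhere (exact permutation p = 0.0357, the smallest the design allows, adjusted p = 0.0714).

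Motifs of other factors differed in how often they occurred at T47D-only sites, counted in the same 200 bp and on either strand. AGATAA, a core sequence of the GATA family of zinc finger factors, was present at 3 of 47 T47D-only sites (6.38%) and 3.32% of shared sites. It was present in 12.8% of the windows to the sides of T47D-only sites and at 4.56% of protein-coding start sites. The AP-1 sequence TGANTCA, with N for any base, was present at 1 T47D-only site (2.13%), compared with 3.57% of shared sites, 6.38% of the windows and 3.88% of start sites. The forkhead sequence TGTTTAC was present at 1 T47D-only site, compared with 1.79% of shared sites, 3.19% of the windows and 1.40% of start sites. The oestrogen response element GGTCANNNTGACC was present at 1 T47D-only site, compared with 0% of shared sites, 0% of the windows and 0.0348% of start sites. The SP and KLF sequence GGGCGGG was present at 6 of 47 T47D-only sites (12.8%) and 140 of 392 shared sites (35.7%), and at 32.9% of protein-coding start sites. At promoter sites alone its shares were 38.5% in both classes (5 of 13 and 114 of 296). The ETS sequence CCGGAAG was present at 5 T47D-only sites (10.6%), compared with 10.7% of shared sites, 1.06% of the windows to the sides and 10.1% of start sites. The NFY sequence CCAAT was present at 8 T47D-only sites (17.0%), compared with 17.1% of shared sites, 24.5% of the windows to the sides and 25.8% of start sites.

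The 47 T47D-only sites had 47 different nearest protein-coding genes, 0.233% of the 20136 genes considered, and the 392 shared sites had 382, or 1.9%. Only ZNF395, TMEM63B and BBX were nearest to sites of both classes. At 9 T47D-only sites (19.1%) the nearest gene also had a HIF-1α site of another line elsewhere, with 8 such sites at ZNF395, 5 at TMEM63B, 3 at BBX, 2 at PIK3R1 and 1 each at ABHD12, ST8SIA6, ZFP36L1, NIPA1 and SHANK2. The other 38 T47D-only sites were nearest to genes with no HIF-1α site in A549, HCT116 or PC3 by this assignment. Shared sites overlap a peak of another line by definition and are no comparison for this count. Assignment to the nearest start says nothing about which gene a distal site acts on.

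In 10 lists of genes of the classical hypoxia response, between 15.4% and 85% of the genes were nearest to a shared site, beside 1.9% of all genes. The share of all genes nearest to a T47D-only site was 0.233%, so that a count of 0 in lists of 9 to 20 genes says nothing about the list. Of 20 genes of glucose uptake and glycolysis, 17 were nearest to a shared site and 0 to a T47D-only site, among them GPI (glucose-6-phosphate isomerase, scores of 2143 and 2471), ENO1 (enolase, 2222 and 2201) and LDHA (lactate dehydrogenase, 901 and 805), all with a HIF-1α peak in 6 of 6 other libraries. Jumonji-domain histone demethylases were nearest to a shared site for 8 of 19 genes and to a T47D-only site for 0, and collagen hydroxylases and crosslinking enzymes for 4 of 10 and 0. The counts near shared sites were 5 of 12 for mitophagy and mitochondrial remodelling, 7 of 16 for growth control and stress response, 3 of 12 for oxygen sensing, 3 of 11 for lactate, pyruvate and acid-base balance, 3 of 12 for angiogenic and vasoactive factors, 3 of 9 for glycogen metabolism and 2 of 13 for lipid synthesis and storage, with 0 near T47D-only sites in each.

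Of the 48 common HIF targets named by the study, 44 were nearest to a shared T47D site and 1, ZNF395, also to a T47D-only site. That list was chosen in part on these libraries and is not independent evidence. The hypoxia lists above share genes with it, among them GPI, ENO1 and LDHA, so their counts are not independent evidence either. When the 3 closest genes were counted in place of 1, the background rose to 0.7% of genes for T47D-only and 5.48% for shared sites. The glycogen genes PPP1R3C and PYGB were then near T47D-only sites, PPP1R3C being also the nearest gene of a shared site. Genes of other lists and families came in too, among them KRT18, MRPL14, MRPS21 and CCNB1. Nothing is read from these counts.

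Of 35 marker genes of the luminal breast epithelium, 1 (KRT8) was nearest to a T47D-only site and 2 (KRT19 and RARA) were nearest to shared sites, beside 0.233% and 1.9% of all genes. A single gene in a list gives no basis for a statement about the list. No gene of the lung, colon or prostate lists (12, 12 and 11 genes) was nearest to a T47D-only site, and 1 lung gene, SFTPD, was nearest to a shared site. Of 9 JUN and FOS family genes, FOS was nearest to a T47D-only site and none to a shared site. Beside the same 0.233% of all genes, gene families chosen by their names gave 3 zinc finger genes of the ZNF series (ZNF107, ZNF395 and ZNF470) of 516, 1 histone gene (H3C7) of 69, 1 solute carrier (SLC40A1, the iron exporter ferroportin) of 385, KRT8 of 152 keratin genes and TMEM63B of 239 TMEM genes. Ribosomal, respiratory chain and proteasome subunits, heat shock and DNAJ proteins, cyclins with cyclin-dependent kinases and RNA polymerase II with SR splicing proteins had 0, and at these sizes nothing is read from the counts.

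BMP4, a secreted ligand of the TGF-β family, was nearest to the best-ranked T47D-only site (chr14:54404708-54405978). This intergenic site lay 13255 bp downstream of the BMP4 start, scored 501 and 396 for HIF-1α and 115 and 176 for HIF-2α in T47D, and had no HIF-1α or HIF-2α peak in the other lines. The nearest HIF-1α peak of another line was 457059 bp away. Its window has a pair of closely spaced ACGTG cores, and these were the 2 RCGTG of the whole site.

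FOS, a subunit of AP-1, was nearest to the T47D-only site at chr14:75720912-75722429, which lay 23859 bp upstream of the start and had scores of 267 and 302. HIF-2α scored 115 and 213 there. A HIF-1α peak of another line was found 20898 bp away.

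ZNF395, a zinc finger gene and a known hypoxia target, had 3 T47D sites. The T47D-only one, in an intron 9548 bp downstream of the start, scored 292 and 263 for HIF-1α and 326 and 453 for HIF-2α. The shared sites at this gene scored 909 and 983, and 80.2 and 120, and each had a peak in all 6 other libraries. The T47D-only site thus ranked between the shared ones.

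Other distal T47D-only sites of high rank lay between 20371 and 803957 bp from the nearest protein-coding start. The site at chr7:157293126-157294568, 120354 bp downstream of the nearest PTPRN2 start (PTPRN2 codes for a phosphatase-like protein of secretory granules) and 169 bp from a start of a gene outside the protein-coding set, scored 241 and 287 and had 19 RCGTG, 13 of them ACGTG, and a HIF-2α peak in replicate 2 only (72.8). The site at chr9:134720463-134721844 lay 105690 bp upstream of RAPGEF1, an exchange factor for Rap GTPases, and scored 186 and 226. The site at chr5:25448397-25449691 lay 803957 bp upstream of CDH10, a cadherin gene, and scored 196 and 125. The site at chr7:64146260-64147635 in an intron of ZNF107, 824 bp from the start of the pseudogene BNIP3P11, scored 184 and 123 and was the only one of the best 8 T47D-only sites without a HIF-2α peak.

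The WT1, PIK3R1 and XAB2 sites stood higher within the HIF-2α lists than within the longer HIF-1α lists of T47D, at percentiles of 99.1 and 99.3 against 83.0 and 72.6 (WT1), 98.8 and 96.0 against 80.6 and 74.3 (PIK3R1) and 84.6 and 89.6 against 77.9 and 78.1 (XAB2). WT1 codes for a zinc finger transcription factor, and the site in its intron (chr11:32442246-32443585, 3772 bp upstream of the nearest coding transcript start) scored 170 and 124 for HIF-1α against 722 and 887 for HIF-2α. A HIF-2α peak of 62.1 was also listed in PC3 replicate 2. The PIK3R1 site (chr5:67583663-67585169), 107 bp from a start of the gene of a PI3-kinase regulatory subunit, scored 158 and 131 for HIF-1α and 582 and 376 for HIF-2α. The XAB2 site (chr19:7684116-7685868), in an intron of this splicing and repair factor gene, scored 144 and 149 for HIF-1α and 148 and 236 for HIF-2α. The ERCC6L2 promoter site (143 and 141) had no HIF-2α peak.

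KRT8 and KRT18, the keratin pair of simple epithelia, lie next to each other, and the T47D-only site nearest to KRT8 (chr12:53368066-53370834) lay 25784 bp upstream of it. It scored 124 and 113 for HIF-1α and 220 and 265 for HIF-2α in T47D. HIF-2α peaks of 62.5 and 73.4 were listed in A549, with no HIF-1α peak in any other line. KRT19, a further keratin of simple epithelia, was looked at after its values were seen. KRT19 and RARA were the 2 listed luminal genes nearest to shared sites, and nothing is read from KRT19 about luminal genes. The KRT19 site, 8490 bp upstream of the start, scored 1047 and 1120 for HIF-1α and 915 and 934 for HIF-2α in T47D, and counted as shared because PC3 had peaks of 88.4 and 119. It had no HIF-2α peak in another line. By rank within each list, the PC3 peaks stood at percentiles 69.9 and 73.2 and the T47D HIF-1α peaks at 98.3 and 98.6.

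**Figure D5:**
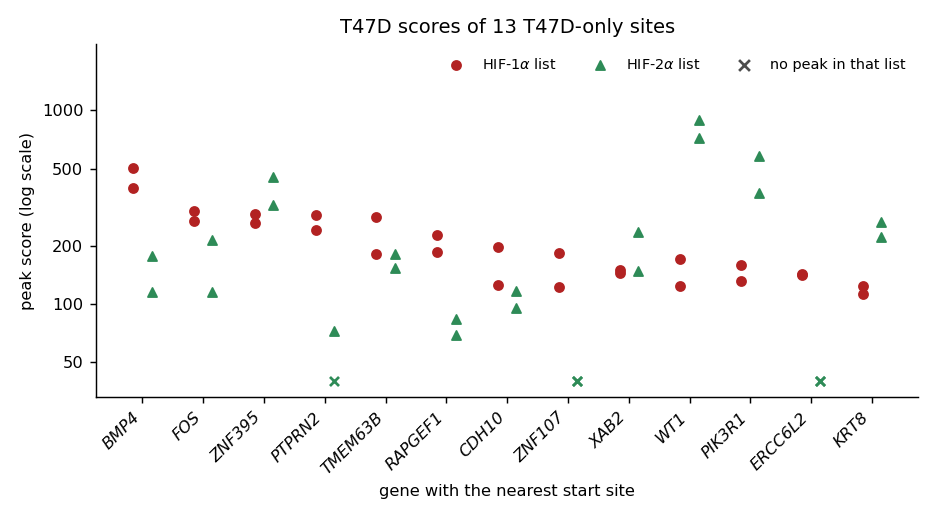
Peak scores (log scale) in both HIF-1α (red circles) and both HIF-2α (green triangles) lists of T47D at the 12 best-ranked T47D-only sites and the KRT8 site, named by nearest gene, with crosses where a list had no peak. HIF-1α scores fall from 501 and 396 at BMP4, while HIF-2α scores peak at WT1 (722 and 887) and PIK3R1.

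The remaining T47D-only sites had scores up to 187 in replicate 1. Those with a HIF-2α peak in both T47D lists were near SMIM38, STMND1, ST8SIA6, ZFP36L1, VSTM2B, DSP, MKNK2, DAPK2, NWD1, RIOK1, ADAM2 and SHANK2. At the SHANK2 site, in an intron of this gene of a synaptic scaffold protein, HIF-1α scored 60.8 and 50.3 and HIF-2α 368 and 329. The SLC40A1 site had 1 HIF-2α peak (197, replicate 1), and the NIPA1 site 1 (64.1, replicate 2). The promoter sites without HIF-2α were those of ERCC6L2, ABHD12, FAM178B, ZNF470, PRPF3, SNRNP200, WDR13, H3C7, ASCL2, HECTD2, KDELR2 and ANKS3, and those of KDELR2 (52.9 and 50.6) and ANKS3 (52.1 and 51.3) were near the threshold of the lists and the lowest-ranked of all 439 sites. The distal sites without HIF-2α were near ZNF107, GYPC, PCDH9, BBX, CARD14, STING1, MYO5C, PRODH and APOD.

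The best shared sites had scores several times those of the best T47D-only site and lay close to start sites. They were nearest to ANKRD37 (2245 and 2493), GPI, ENO1, RRP12 (2055 and 2340), SNAPC1 (1800 and 2161), FAM174B (1719 and 1952), NARF (1689 and 1911) and SLC16A3 (1464 and 1417, the lactate exporter MCT4), each with a HIF-1α peak in 6 of 6 other libraries. SNAPC1, 11135 bp upstream of its start, was the single one of the 8 farther than 1000 bp, and the nearest start of any gene there was that of HIF1A-AS3, 122 bp away. In T47D, HIF-2α peaked at 6 of these 8 sites, FAM174B and NARF being the exceptions.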

How the data were processed

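ChIP-seq peak lists of HIF-1α and HIF-2α in A549, HCT116, PC3 and T47D cells were used, 1 list per library. Per the labels and the study's methods, the authors trimmed reads with Trim Galore 0.3.3, aligned them to GRCh37 with BWA 0.7.5a-r405, removed reads of low mapping quality with SAMtools 0.1.19, blacklisted regions with bedtools 2.17.0 and duplicates with Picard 2.0.1, and called peaks in each library with MACS. The authors deposited a score for each peak, whose scale is not stated, and the version of MACS is not given in the sources used here. The lists precede the further filters of the study, which used another peak caller, read counts and HIF-1β. Read depth is unknown, so that the number of peaks sets the counting precision.

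Groups came from the sample titles. The 18 HIF-1α peaks off chromosomes 1 to 22, X and Y were left out. Start sites were those of protein-coding transcripts in GENCODE release 44 on GRCh37, and 1000 bp from the centre of a site divided promoter from distal sites. Sequences were read from GRCh37. Shares carry Wilson and differences Newcombe 95% intervals, and libraries were compared with exact two-sided permutation tests, adjusted by Benjamini and Hochberg over 5 measures, at a threshold of 0.05. Named sites were the 12 T47D-only and 8 shared sites of highest mean percentile, the T47D-only sites nearest to a listed gene, and the 5 best T47D-only sites that were over 10000 bp from a start or had HIF-2α in both libraries. The members and lists were chosen with earlier results of these data known. The tools were Python 3.11.15, matplotlib 3.10.9, pysam 0.24.0, scipy 1.17.1 and numpy 2.4.6, and the procedure was tested on simulated peak lists. Other overlaps, score thresholds, list lengths, start sites, motif windows, lines and libraries left out, and a replicate block were tried. Replicate numbers were checked for pairing: percentile differences between replicates 1 and 2 of T47D and of PC3 had r = -0.103 over 281 sites, and those of A549 and HCT116 r = -0.102 over 150 sites.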

Additional observations from a re-analysis of the deposited data

Results flagged for a closer look

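The overlap of line-only HIF-1α peaks with HIF-2α of the same line went in opposite directions in T47D and HCT116. Over peaks found in both replicates, line-only peaks exceeded shared peaks by 27.7 percentage points on average in T47D (28.1 and 27.2 in the 2 libraries) and fell short of them in HCT116, with a mean of -15.5 points (-15.7 and -15.4). The difference between these 2 lines was not tested by itself. Line-only peaks numbered 48 and 47 in T47D and 1035 and 1039 in HCT116, and their promoter shares were 27.1% and 27.7% in T47D and 75.2% and 74.7% in HCT116. The part of these differences in list length and position in the HIF-2α result was not tested between the lines.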

How the results depend on the processing

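The lists give neither reads nor depth, and the number of peaks limits every count of T47D-only sites. With only the peaks scoring at least 76.6 the T47D-only sites numbered 27 and the percentile difference was -12.6, while with the peaks of either T47D replicate they numbered 281, with differences of 2.18 (log10 distance), -33.1 (RCGTG), -2.21 (HIF-2α, reversed) and -26.7 (percentile). With 382 peaks per list the differences were -31.7 (promoter), 1.59 (distance), 1.92 (HIF-2α) and -18.5 (percentile), and without HCT116 -32.0, 1.26, 13.1 and -18.6. Without PC3 the HIF-2α difference was 21.8, within 3 groups of rank it was 36.7 (distance 1.73), at distal sites 33.9 and at distal sites within groups of rank 39.5, the last 2 settings having been chosen after seeing the data. Distance differed by 1.69 with 1 start per gene and by 1.27 with the starts of all transcripts, and RCGTG by 10.9 points after subtraction of CpG-matched windows. Leaving out 1 library at a time gave 47 to 173 sites, with ranges of -56.8 to -42.9 (promoter), 1.73 to 2.24 (distance), -38.6 to 0.677 (RCGTG), -3.09 to 29.3 (HIF-2α) and -32.0 to -8.18 (percentile), and the far ends of the count, RCGTG, HIF-2α and percentile came without a T47D replicate, when single-library peaks count as sites (156 without replicate 1, 173 without replicate 2, HIF-2α -3.09 and 2.99). The promoter difference stayed below 0 and the distance difference above 0 in all settings tried.

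In the tests of T47D against the other lines, no setting gave an adjusted p under 0.05. Such a result was nearly out of reach in every setting, so its absence says little about the differences. With 28 relabellings the smallest p is 0.0357, and adjustment over 5 measures needed most of them at that floor together. Settings that changed only some of the measures could not pass. Settings with 15 or fewer relabellings could not have done so for any measure. These were the ones without a line or a T47D library, the replicate blocks and the lines as units. The direction reversed with 382 peaks per list for the promoter share (1.74), distance (-0.529), RCGTG (5.09), HIF-2α (-0.298) and percentile (-0.838), and for RCGTG also with the score threshold (0.477), with replicated peaks (6.30) and with CpG-matched windows (0.773). The cause was not tested. With the replicate number as a replicate block the promoter contrast was -19.9 (exact permutation p = 0.25 over 8 relabellings), and no call was possible. The replicate numbers showed no pairing of the libraries, and a crossed block, also with 8 relabellings, could make no call either. With the 4 lines as units the smallest p possible is 0.25.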
